A study of Mus musculus with 6 samples.

Results

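Transcript levels of 10 genes of astrocyte transport and metabolism were followed in cultured mouse neural stem and progenitor cells. The genes were listed by symbol and matched to the Entrez gene identifiers of the deposited tables, and all 10 were found among 17254 identifiers. They are the glutamate transporters Slc1a3 and Slc1a2, the sodium bicarbonate cotransporter Slc4a4, the sodium pump subunit Atp1b2, the enzymes Acsbg1, Aldoc and Aldh1l1, the gap junction protein Gja1, the growth factor receptor Fgfr3 and the cytoplasmic protein Ndrg2. All 10 passed the filter on low counts, which left 12813 genes for testing. The study set out to shift the redox state inside the cells over 48 h and to read the gene expression that followed. Its 3 groups, of 2 libraries each, are cells given PQ, cells given NAC and control cells. All groups were grown in N2 medium that contained the mitogens EGF and bFGF. The labels spell out neither PQ nor NAC, and they name no dose, strain, age or vehicle. Whether libraries within a group are separate cultures is not stated, so p-values here cover only library-to-library spread, which may be technical. The titles number the libraries 8 to 10 and 11 to 13 in 2 runs that each hold all 3 groups, and no label calls these runs batches.

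Astrocytes take up the glutamate that neurons release, buffer ions and pH, and share small molecules through gap junctions. The plasma membrane glutamate transporters use the sodium gradient that the sodium pump maintains, and sodium bicarbonate cotransport couples sodium to pH. Radial glia and neural stem cells express many of the same genes, so a transcript from this set does not by itself mark a mature astrocyte.

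Summed expected counts, which estimate the reads per gene, were between 9680436 and 10698241 per library. The chi-square per degree of freedom between libraries over genes was 4.08 within PQ, 4.68 within NAC and 6.79 within control, and 14.7 to 37.3 between libraries of different groups. Levels are given as CPM, reads per gene after TMM scaling for library size, for comparing libraries, and as the authors' FPKM, which also divides by transcript length, for comparing genes. Differences are log2 fold changes with a standard error (SE) from edgeR's quasi-likelihood test, fitted over all 6 libraries. Every adjusted p is that test's, with Benjamini-Hochberg adjustment over 12813 genes, and a gene is said to rise or fall only where it was under 0.05.

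Of 6 defining astrocyte markers, Gfap, Aqp4, S100b, Slc7a10 and Gjb6 were low and Sox9 was not. Gfap, the intermediate filament of astrocytes, had 1.96 and 1.77 FPKM in PQ libraries, 4.07 and 5.14 FPKM in NAC libraries and 2.17 and 1.64 FPKM in control libraries. Aqp4, the water channel of astrocyte endfeet, had 0.83 and 0.54 FPKM in PQ libraries, 2.66 and 2.56 FPKM in NAC libraries and 0.70 and 0.79 FPKM in control libraries. Gjb6, the other main astrocyte connexin, was not listed in 5 of the 6 libraries and was entered there as 0. S100b had at most 1.80 FPKM, and Slc7a10, an amino acid exchanger, at most 0.86 FPKM. Sox9, a transcription factor that astrocytes share with neural stem cells, had 38.1 to 54.0 FPKM, and the filament gene Vim, one of the neural stem cell markers, had 1362 to 2647 FPKM. Other genes of astrocytes that radial glia also express were high, such as Fabp7, a lipid-binding protein, with 741 to 913 FPKM, Hepacam, an adhesion protein, with 67.6 to 96.7 FPKM, and Mlc1, a membrane protein of astrocyte endfeet, with 26.3 to 55.8 FPKM. The 10 genes are therefore described as genes of these progenitor cultures.

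The order of the genes by FPKM differed between groups. In PQ libraries Gja1 was highest with a mean of 159 FPKM, followed by Atp1b2 with 104, Slc1a3 with 72.5, Acsbg1 with 69.3, Aldoc with 44.7, Ndrg2 with 29.3, Fgfr3 with 7.14, Slc1a2 with 4.58, Aldh1l1 with 2.82 and Slc4a4 with 2.80 FPKM. Only the neighbours Slc1a3 and Acsbg1, and Aldh1l1 and Slc4a4, overlapped between libraries in that order. In NAC libraries Atp1b2 led with 197 FPKM, ahead of Acsbg1 with 156, Slc1a3 with 125, Aldoc with 97.0, Gja1 with 96.9, Ndrg2 with 19.6, Fgfr3 with 14.2, Slc4a4 with 7.66, Slc1a2 with 6.25 and Aldh1l1 with 0.895 FPKM. Here only Aldoc and Gja1 overlapped. In control libraries Gja1 was again highest with 126 FPKM, followed by Slc1a3 with 99.0, Atp1b2 with 90.1, Acsbg1 with 71.2, Aldoc with 44.2, Ndrg2 with 21.9, Fgfr3 with 14.1, Slc4a4 with 4.88, Slc1a2 with 3.79 and Aldh1l1 with 1.22 FPKM, and only Slc1a3 and Atp1b2 overlapped. In control cells Gja1 stood above 95.8% of the tested genes and Aldh1l1 above 12.2%.

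**Figure D1:**
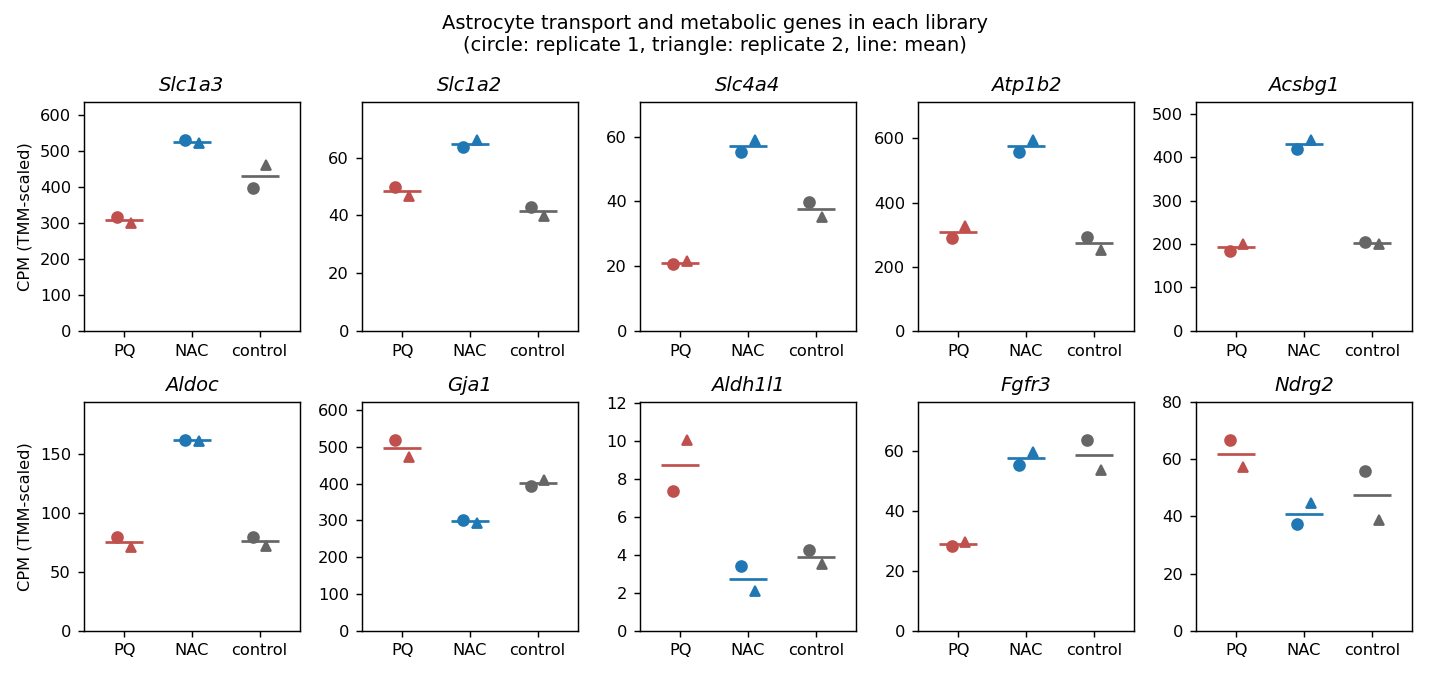
Level of each of the 10 genes in every library, as TMM-scaled CPM on linear axes that start at 0, with PQ, NAC and control from left to right, circles and triangles for the 2 libraries of a group and a line for their mean. Atp1b2, Acsbg1 and Aldoc were higher in both NAC libraries than in the other 4, and Slc4a4 was lower in both PQ libraries than in the other 4.

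PQ against control shows the state of the 10 genes after treatment with PQ. Of the 10 genes, 2 rose (Gja1 and Aldh1l1), 3 fell (Slc1a3, Slc4a4 and Fgfr3) and 5 did not pass the test. Without PQ replicate 2 neither rise passed, and the 3 falls did. Over all tested genes 17.9% passed in either direction, 9.07% higher and 8.80% lower. The 2 groups did not overlap for 7 of the 10 genes, as for 57.2% of all tested genes, so non-overlap by itself is common here. The median log2 fold change was 0.08 over the 10 genes and -0.0024 over all tested genes. In these bulk cultures, fewer cells of a type and less RNA per cell cannot be told apart.

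The second comparison, NAC against control, gave 6 genes that rose (Slc1a3, Slc1a2, Slc4a4, Atp1b2, Acsbg1 and Aldoc), 1 that fell (Gja1) and 3 that did not pass. Among all tested genes 17.9% passed in either direction, 8.65% higher and 9.26% lower. The groups did not overlap for 8 of the 10 genes, against 56.6% of all tested genes, and the median log2 fold change was 0.447 over the 10 genes and -0.0023 over all. The count of all genes was 1108 higher and 1186 lower, and scaling by library size alone gave 1392 higher and 986 lower with the same counts among the 10 genes.

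PQ against NAC tests directly whether the treatments differed. All 10 genes passed, 3 higher in PQ (Gja1, Aldh1l1 and Ndrg2) and 7 lower, where 30.6% of all tested genes passed, 15.5% higher and 15.1% lower. The groups did not overlap for any of the 10 genes, as for 66.0% of all tested genes, and the median log2 fold change was -0.837 over the 10 genes and 0.0011 over all. Each treatment's comparison uses the same 2 control libraries, so the values of both are given side by side below. Summed over the 10 genes, the level was 1561 and 1535 CPM in PQ libraries, 2184 and 2241 CPM in NAC libraries and 1571 and 1565 CPM in control libraries.

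**Figure D2:**
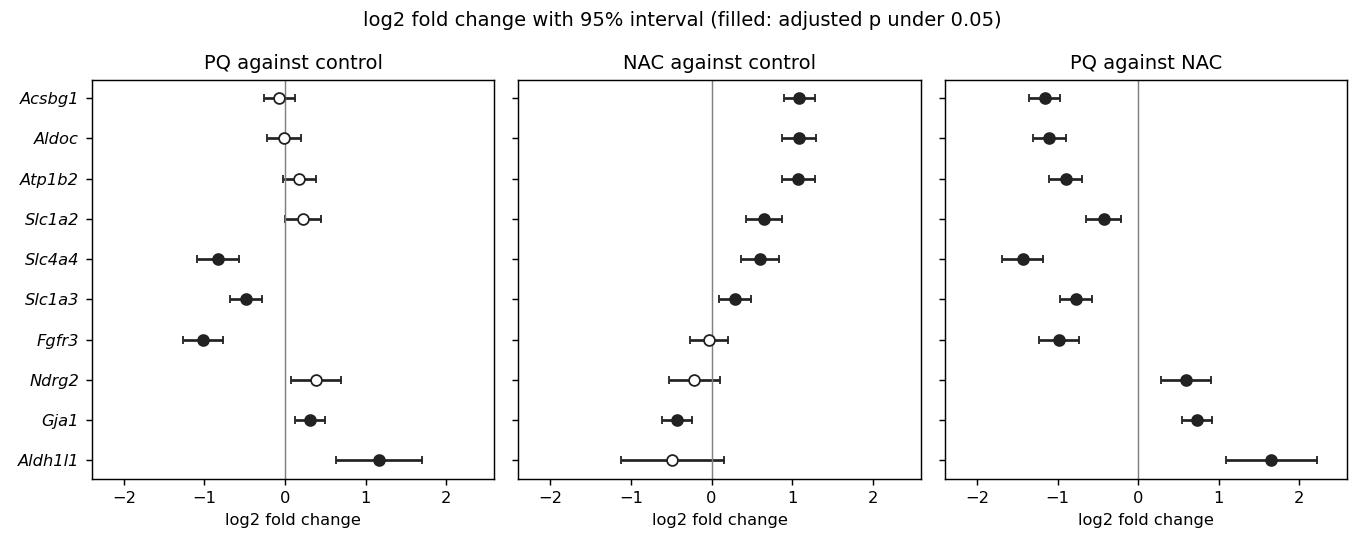
Log2 fold change of each of the 10 genes in the 3 comparisons, with bars for 95% intervals and filled points for an adjusted p under 0.05. Atp1b2, Acsbg1 and Aldoc lie near 1.1 for NAC against control and near 0 for PQ against control, while Gja1 lies above 0 for PQ and below 0 for NAC.

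Slc1a3 (GLAST, Entrez 20512, chr15:8634124-8710807 of GRCm38.p6), the glutamate transporter of radial glia and astrocytes, had 315 and 299 CPM in PQ libraries, 529 and 520.0 CPM in NAC libraries and 396 and 460.1 CPM in control libraries. Both PQ libraries were below both control libraries and both NAC libraries were above them. It fell in PQ 1.39-fold (log2 fold change -0.48 ± 0.09, adjusted p = 0.0017). It rose in NAC 1.225-fold (0.29 ± 0.09, adjusted p = 0.037), a call that was lost on leaving out any library other than control replicate 2, with adjusted p between 0.0553 and 0.252. Against NAC, PQ was 1.71-fold lower (-0.77 ± 0.09, adjusted p = 7e-06).

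Slc1a2 (GLT-1, Entrez 20511, chr2:102658239-102790784), the main glutamate transporter of mature forebrain astrocytes, had 49.9 and 46.7 CPM in PQ libraries, 63.6 and 66.0 CPM in NAC libraries and 43.0 and 39.7 CPM in control libraries. The groups did not overlap in any of the comparisons, and NAC was highest. In PQ the difference from control missed the threshold (log2 fold change 0.22 ± 0.11, 95% interval -0.0039 to 0.45, adjusted p = 0.17). In NAC it rose 1.57-fold (0.65 ± 0.11, adjusted p = 0.00024). PQ was 1.34-fold lower than NAC (-0.43 ± 0.10, adjusted p = 0.0044), which was lost without PQ replicate 2 (adjusted p = 0.0656). Its share of the FPKM of the 5 excitatory amino acid transporters Slc1a1, Slc1a2, Slc1a3, Slc1a6 and Slc1a7 was 5.97% and 5.83% in PQ libraries, 4.52% and 4.95% in NAC libraries and 3.98% and 3.41% in control libraries.

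Of the other SLC1 genes, 3 of 5 were tested, and 2 fell in each comparison with control while none rose. Slc1a4, a carrier of neutral amino acids such as serine and alanine, fell in PQ (log2 fold change -1.28 ± 0.12, adjusted p = 2e-06) and in NAC (-0.78 ± 0.12, adjusted p = 0.00012). Slc1a5, a glutamine carrier, fell in PQ (-0.81 ± 0.16, adjusted p = 0.0017) and in NAC (-0.71 ± 0.16, adjusted p = 0.0035), a NAC call that was lost without NAC replicate 1 (adjusted p = 0.054). The median log2 fold change of these 3 genes was -0.81 in PQ and -0.71 in NAC, so in NAC the amino acid carriers of the family and the members Slc1a2 and Slc1a3 passed the test in opposite directions.

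Of 13 genes that handle glutamate and glutamine 12 were tested, with 1 higher and 3 lower in PQ, and 4 higher and 2 lower in NAC. The 3 lower in PQ were Glul (-0.457 to -0.347 on leaving out a library), Slc38a1 (-0.314 to -0.283) and Slc38a2 (-0.4 to -0.235). All 3 calls were lost without PQ replicate 2. In NAC the rises of Glud1 (0.357 to 0.455) and Glul (0.261 to 0.387) were lost without NAC replicate 1. Slc25a12 fell in NAC (-0.439 to -0.203), a call lost on leaving out any library other than control replicate 2, and with DESeq2 or limma. The medians of the 12 genes were -0.05 in PQ and 0.00 in NAC. Slc25a18, a mitochondrial glutamate carrier, rose in both treatments (0.86 ± 0.12 in PQ, adjusted p = 0.00012, and 1.34 ± 0.12 in NAC, adjusted p = 4.4e-07). Slc38a3, which exports glutamine from astrocytes, rose in NAC (1.19 ± 0.12, adjusted p = 1.6e-06). Glul, glutamine synthetase, was lower in PQ than in NAC (-0.73 ± 0.10, adjusted p = 2.3e-05). Its calls against control, lower in PQ (-0.40 ± 0.10, adjusted p = 0.0094) and higher in NAC (0.32 ± 0.10, adjusted p = 0.027), were each lost on leaving out a library (adjusted p up to 0.1 for PQ and 0.2 for NAC). In PQ against NAC 3 genes of this list were higher and 4 lower, and of the SLC1 relatives 0 were higher and 1, Slc1a4, was lower, which was lost without PQ replicate 2 (adjusted p = 0.083).

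Slc4a4 (NBCe1, Entrez 54403, chr5:88793858-89239656), which moves sodium and bicarbonate across the membrane, had 20.7 and 21.5 CPM in PQ libraries, 55.2 and 58.9 CPM in NAC libraries and 39.9 and 35.2 CPM in control libraries. The 3 groups stood apart, PQ lowest and NAC highest. It fell 1.78-fold in PQ (log2 fold change -0.83 ± 0.12, adjusted p = 0.00016) and rose 1.52-fold in NAC (0.60 ± 0.11, adjusted p = 0.0009). Between the treatments PQ was 2.70-fold lower (-1.43 ± 0.12, adjusted p = 8.8e-08), and these 3 calls held on leaving out each library in turn.

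Among 15 other bicarbonate transporters and carbonic anhydrases 8 were tested, with 3 higher and 0 lower in PQ, 2 higher and 1 lower in NAC, and 2 higher and 1 lower in PQ against NAC. In PQ the calls of Slc4a3 (0.395 to 0.762 on leaving out a library) and Slc4a2 (0.241 to 0.472) were each lost in some of these fits. The 1 lower in NAC was Slc4a11 (-1.281 to -0.799). Its call was lost on leaving out any library other than control replicate 2, and with DESeq2 or limma. In PQ against NAC the call of Car13 (0.668 to 0.766) was lost without PQ replicate 2. Car2, the carbonic anhydrase of glia, rose in NAC (1.22 ± 0.10, adjusted p = 1.2e-07) and was lower in PQ than in NAC (-1.52 ± 0.10, adjusted p = 5.2e-09). Car13, another cytosolic carbonic anhydrase, rose in PQ (1.15 ± 0.20, adjusted p = 0.00073), the opposite direction to Slc4a4 there. The medians of these 8 genes were 0.35 in PQ and 0.31 in NAC.

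Atp1b2 (Entrez 11932, chr11:69599728-69605978), the beta subunit of the sodium pump typical of astrocytes, had 291 and 326 CPM in PQ libraries, 556 and 595 CPM in NAC libraries and 292 and 253 CPM in control libraries. Both NAC libraries were well above the other 4, and the PQ and control libraries overlapped. NAC was 2.11-fold higher than control (log2 fold change 1.08 ± 0.10, adjusted p = 5e-07). PQ did not pass against control (0.18 ± 0.10, 95% interval -0.03 to 0.39, adjusted p = 0.24) and was 1.87-fold lower than NAC (-0.90 ± 0.10, adjusted p = 1.9e-06).

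Among the other sodium pump subunits, 4 of 10 were tested and 0 passed in any of the 3 comparisons, by edgeR's test, with medians of 0.08 in PQ, 0.07 in NAC and 0.06 in PQ against NAC. None of the 4 had an unadjusted p under 0.05, and DESeq2 and limma called 0. As a share of the FPKM of the 3 beta subunits Atp1b1, Atp1b2 and Atp1b3, Atp1b2 made up 56.2% and 59.4% in PQ libraries, 70.8% and 74.0% in NAC libraries and 56.6% and 52.3% in control libraries.

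Acsbg1 (Entrez 94180, chr9:54604886-54661885), which activates long-chain fatty acids by joining them to coenzyme A, had 184 and 200.5 CPM in PQ libraries, 419.6 and 439 CPM in NAC libraries and 204 and 199.6 CPM in control libraries. Both NAC libraries lay above the other 4, and PQ and control overlapped. The gene rose 2.13-fold in NAC (log2 fold change 1.09 ± 0.09, adjusted p = 2.2e-07). In PQ it had -0.07 ± 0.09 against control (95% interval -0.26 to 0.12, adjusted p = 0.66), and PQ was 2.23-fold lower than NAC (-1.16 ± 0.09, adjusted p = 5.5e-08).

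Of 12 other acyl-CoA synthetases 11 were tested, with 0 higher and 1 lower in PQ and 0 higher and 3 lower in NAC. The gene lower in PQ, Acsl6, (-0.93 ± 0.24, adjusted p = 0.011) did not pass without control replicate 1, PQ replicate 1 or PQ replicate 2 (adjusted p up to 0.089). The medians were 0.12 in PQ and -0.07 in NAC. In NAC the acetyl-CoA synthetase Acss2 fell (-1.22 ± 0.11, adjusted p = 4.4e-07), as did the long-chain synthetases Acsl4 (-0.75 ± 0.11, adjusted p = 5.5e-05) and Acsl1 (-1.005 ± 0.20, adjusted p = 0.0019). In PQ against NAC 4 of the 11 were higher and 1 lower, and without PQ replicate 1 these counts were 2 and 0. Acsbg1 made up 21.0% and 25.0% of the FPKM of 7 long-chain synthetases (Acsbg1, Acsbg2, Acsl1, Acsl3, Acsl4, Acsl5 and Acsl6) in PQ libraries, 46.6% and 50.7% in NAC libraries and 26.8% and 25.8% in control libraries.

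Aldoc (Entrez 11676, chr11:78323073-78327781), the aldolase isoform of brain, had 79.5 and 71.4 CPM in PQ libraries, 162 and 162 CPM in NAC libraries and 79.9 and 72.4 CPM in control libraries. PQ and control overlapped and both NAC libraries were above them. Aldoc rose 2.12-fold in NAC (log2 fold change 1.09 ± 0.10, adjusted p = 5e-07) and was 2.15-fold lower in PQ than in NAC (-1.10 ± 0.10, adjusted p = 2.2e-07). Between PQ and control the value was -0.015 ± 0.10 (95% interval -0.23 to 0.20, adjusted p = 0.94).

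The main aldolase moved the other way. Aldoa, the widely expressed isoform, had 2254 and 2103 CPM in PQ libraries, 1220.0 and 1544 CPM in NAC libraries and 2563 and 2087 CPM in control libraries. It fell in NAC (-0.75 ± 0.11, adjusted p = 0.00012) and had -0.09 ± 0.11 in PQ (adjusted p = 0.62). Aldoc therefore made up 3.06% and 2.95% of aldolase FPKM in PQ libraries, 10.6% and 8.57% in NAC libraries and 2.72% and 3.02% in control libraries. Of the 5 tested genes for the other aldolases and neighbouring glycolytic steps, 0 rose and 4 fell in NAC (median -0.75), with Pfkp, a phosphofructokinase, at -1.16 ± 0.10 (adjusted p = 2.8e-07) and Tpi1, triosephosphate isomerase, at -0.82 ± 0.10 (adjusted p = 1.9e-05). In PQ 0 rose and 1 fell (median -0.09; 0 without control replicate 1), and in PQ against NAC 3 were higher and 0 lower.

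Because Acsbg1, Aldoc and Slc1a3 rose in NAC while Gja1 fell, the bases before their start sites are shown. They are the 250 bases upstream of a RefSeq start at the 5′ end of each gene in GRCm38.p6, at chr9:54661886-54662135 (minus strand) for Acsbg1, chr11:78322823-78323072 (plus strand) for Aldoc, chr15:8710808-8711057 (minus strand) for Slc1a3 and chr10:56377050-56377299 (plus strand) for Gja1. Capitals mark TTGGC or its reverse complement GCCAA, the core recognition letters of NFI factors, which act in astrocyte development.
Acsbg1: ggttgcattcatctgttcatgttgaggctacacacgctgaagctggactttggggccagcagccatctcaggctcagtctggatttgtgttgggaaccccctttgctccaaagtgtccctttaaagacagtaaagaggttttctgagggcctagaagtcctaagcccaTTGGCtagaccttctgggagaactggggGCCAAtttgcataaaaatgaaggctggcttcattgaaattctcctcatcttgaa
Aldoc: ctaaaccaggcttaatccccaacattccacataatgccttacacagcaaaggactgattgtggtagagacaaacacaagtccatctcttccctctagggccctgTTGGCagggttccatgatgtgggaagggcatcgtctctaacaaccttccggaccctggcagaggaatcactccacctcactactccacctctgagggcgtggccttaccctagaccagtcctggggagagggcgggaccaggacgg
Slc1a3: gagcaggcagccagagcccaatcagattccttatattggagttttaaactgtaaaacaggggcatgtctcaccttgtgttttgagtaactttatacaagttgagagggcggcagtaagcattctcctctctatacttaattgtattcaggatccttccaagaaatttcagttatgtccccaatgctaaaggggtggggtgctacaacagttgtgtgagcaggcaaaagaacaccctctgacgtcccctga
Gja1: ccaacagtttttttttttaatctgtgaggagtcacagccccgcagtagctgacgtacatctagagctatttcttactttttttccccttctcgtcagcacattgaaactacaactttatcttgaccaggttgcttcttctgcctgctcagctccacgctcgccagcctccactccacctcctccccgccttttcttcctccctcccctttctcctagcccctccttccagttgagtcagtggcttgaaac
The window of Acsbg1 held 2 such matches, that of Aldoc held 1, and those of Slc1a3 and Gja1 held 0. A second, internal start of Aldoc had 0 matches. The listed starts of Slc1a2 (1 match) and Slc4a4 (2 and 1 matches), which also rose in NAC, lie inside the genes, downstream of the 5′ ends of the coordinates given above. Genes that rose in NAC thus had windows with and without the match. Those without it were the window of Slc1a3 and the internal start of Aldoc. Slc1a3 rose least of these genes in NAC, with 0.19 to 0.41 on leaving out a library. It did not pass there with only the groups compared. Both strands of 14 windows from 9 of the genes were searched, some genes having several starts, and Atp1b2 is named only. These letters were in 7 of the 14, and in 41.5% of 32851 RefSeq windows of the same length. The STAT motif TTCNNNGAA was in 3 of the 14 windows, among them that of Acsbg1, and in 7.0% of all windows. The GC box GGGCGG was in 8 of the 14 and in 32.7% of all windows. GC content was 44.8% to 82.0% in these 8 windows, some of them of the same gene, and had a median of 52.4% over all windows. Its part in this count was not tested. The letters ACGTG, 1 form of the hypoxia response core, were in 0 of the 14 and in 16.6% of all windows. The form GCGTG, which the Aldoc window above holds, was not searched for. None of these motifs is nested in another, and a match describes letters and not a bound site.

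Aldh1l1 (Entrez 107747, chr6:90550768-90599171), the cytosolic 10-formyltetrahydrofolate dehydrogenase and a common astrocyte marker, was the least abundant of the 10 in NAC and control libraries. It had 7.39 and 10.1 CPM in PQ libraries, 3.43 and 2.08 CPM in NAC libraries and 4.25 and 3.53 CPM in control libraries. These rest on rounded expected counts of 71 and 106 in PQ, 37 and 21 in NAC and 42 and 34 in control. Both PQ libraries were above the other 4, and it rose 2.25-fold in PQ (log2 fold change 1.17 ± 0.26, adjusted p = 0.0039), a call lost without PQ replicate 2 (adjusted p = 0.102). NAC did not pass against control (-0.49 ± 0.30, 95% interval -1.13 to 0.15, adjusted p = 0.3), and PQ was 3.15-fold higher than NAC (1.66 ± 0.27, adjusted p = 0.00013). An antisense gene, Gm15756, shares 11.0% of its exonic bases, and it is not known here whether reads were assigned by strand.

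Of the 11 tested folate enzymes around it, 0 rose and 6 fell in PQ (median -0.55), and 2 rose and 5 fell in NAC (median -0.22). The mitochondrial paralogue Aldh1l2 fell in NAC (-1.48 ± 0.11, adjusted p = 9.1e-08) and in PQ (-0.55 ± 0.11, adjusted p = 0.0018), the PQ call being lost without PQ replicate 2 (adjusted p = 0.067). It shares 14.1% of its exonic bases with a tested gene on the opposite strand. Shmt2, the mitochondrial serine hydroxymethyltransferase, fell in PQ (-1.44 ± 0.12, adjusted p = 4.3e-07) and in NAC (-1.44 ± 0.12, adjusted p = 1.3e-07), and Mthfd2, a mitochondrial folate dehydrogenase, fell in PQ (-1.63 ± 0.17, adjusted p = 4.2e-06) and in NAC (-1.74 ± 0.17, adjusted p = 8.7e-07). In PQ against NAC 2 of the 11 were higher and 3 lower (median 0.00). The counts of 2 were each 1 without a library, control replicate 2 for NAC and PQ replicate 1 for PQ against NAC. Aldh1l1 made up 5.39% and 8.33% of the summed FPKM of Aldh1l1 and Aldh1l2 in PQ libraries, 5.35% and 3.04% in NAC libraries and 2.61% and 1.78% in control libraries.

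Gja1 (connexin 43, Entrez 14609, chr10:56377300-56390419), the main gap junction protein of astrocytes and radial glia, had 518 and 473 CPM in PQ libraries, 302 and 294 CPM in NAC libraries and 392 and 409 CPM in control libraries. The 3 groups did not overlap, with PQ highest and NAC lowest. It rose 1.24-fold in PQ (log2 fold change 0.31 ± 0.09, adjusted p = 0.023), a call that was lost without PQ replicate 1 (adjusted p = 0.209), PQ replicate 2 (adjusted p = 0.0661) or control replicate 1 (adjusted p = 0.0909). It fell 1.35-fold in NAC (-0.43 ± 0.09, adjusted p = 0.0024), and PQ was 1.66-fold higher than NAC (0.74 ± 0.09, adjusted p = 7.1e-06).

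Of 12 other connexin, pannexin and junction genes 3 were tested, and 1 rose and 0 fell in each comparison with control, with 0 calls in PQ against NAC by edgeR, DESeq2 or limma and 0 unadjusted p under 0.05. Gjc3, a connexin of the oligodendrocyte lineage, rose in PQ (0.85 ± 0.10, adjusted p = 1e-05) and in NAC (1.04 ± 0.10, adjusted p = 5.6e-07). The medians of the 3 genes were 0.50 in PQ and 0.28 in NAC. Gja1 made up 83.3% and 80.9% of the FPKM of 4 connexins (Gja1, Gjb6, Gjc1 and Gjc3) in PQ libraries, 71.0% and 70.7% in NAC libraries and 86.7% and 87.3% in control libraries.

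**Figure D3:**
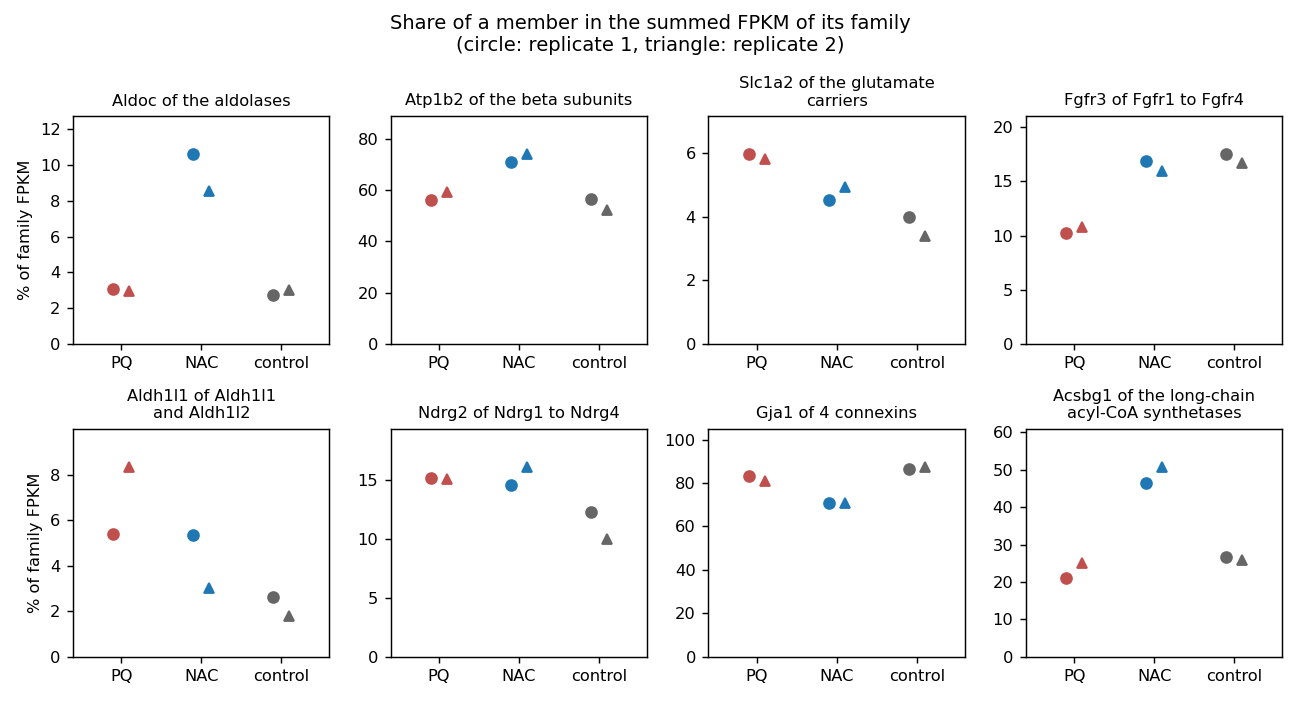
Share of 8 of the genes in the summed FPKM of their families, in percent on axes that start at 0, for every library, with PQ, NAC and control from left to right. Acsbg1, Aldoc and Atp1b2 had their highest shares in both NAC libraries, Gja1 its lowest there, and Fgfr3 its lowest in both PQ libraries.

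Fgfr3 (Entrez 14184, chr5:33721724-33737068), an FGF receptor of radial glia and astrocytes, had 28.3 and 29.8 CPM in PQ libraries, 55.2 and 59.8 CPM in NAC libraries and 63.7 and 53.7 CPM in control libraries. Both PQ libraries were below the other 4, and NAC and control overlapped. It fell 2.02-fold in PQ (log2 fold change -1.02 ± 0.12, adjusted p = 1.3e-05) and was 1.98-fold lower in PQ than in NAC (-0.99 ± 0.12, adjusted p = 5.4e-06). NAC against control gave -0.03 ± 0.11 (95% interval -0.26 to 0.20, adjusted p = 0.89). Another annotated gene on the opposite strand, G630022F23Rik, shares 13.9% of its exonic bases.

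The other FGF receptors and feedback genes of FGF signalling gave 0 calls among 13 tested genes in PQ, by edgeR's test (median 0.00), and 4 higher and 1 lower in NAC (median 0.20). In PQ 1 of the 13 had an unadjusted p under 0.05, and DESeq2 and limma called 0. Of the 4 higher in NAC, Etv5 had 0.244 to 0.279 and Fgfrl1 had 0.229 to 0.471 on leaving out a library. The call of Etv5 was lost in every such fit, and that of Fgfrl1 in some. Fgfr1, the most abundant of Fgfr1 to Fgfr4, had -0.21 in PQ (adjusted p = 0.15). Spry1, a feedback inhibitor, rose in NAC (0.87 ± 0.09, adjusted p = 2.8e-06), as did Dusp6, a phosphatase that acts on ERK (0.64 ± 0.09, adjusted p = 4.4e-05), while the receptor gene Fgfr2 fell (-1.24 ± 0.27, adjusted p = 0.0029). In PQ against NAC 1 was higher and 4 were lower, of which 2 were lower without PQ replicate 1. Fgfr3 made up 10.2% and 10.8% of the FPKM of the 4 FGF receptors in PQ libraries, 16.9% and 16.0% in NAC libraries and 17.5% and 16.7% in control libraries.

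Ndrg2 (Entrez 29811, chr14:51905271-51914004), a cytoplasmic protein enriched in astrocytes, had 66.7 and 57.2 CPM in PQ libraries, 37.3 and 44.6 CPM in NAC libraries and 56.0 and 38.7 CPM in control libraries. PQ was above both other groups, and the control libraries differed from each other more than those of the other groups. Neither comparison with control passed, with log2 fold changes of 0.39 ± 0.15 in PQ (95% interval 0.08 to 0.69, adjusted p = 0.076) and -0.21 ± 0.15 in NAC (95% interval -0.53 to 0.10, adjusted p = 0.36). Without control replicate 1 the PQ difference was 0.68 (adjusted p = 0.00105), and without control replicate 2 the NAC difference was -0.45 (adjusted p = 0.025). PQ was 1.515-fold higher than NAC (0.60 ± 0.15, adjusted p = 0.0045), which was lost without PQ replicate 1 (adjusted p = 0.0646) or NAC replicate 1 (adjusted p = 0.0691).

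All 3 other NDRG genes were tested, with 2 higher and 0 lower in PQ (median 0.29), 0 higher and 1 lower in NAC (median -0.31), and 2 higher and 0 lower in PQ against NAC. Ndrg1, which responds to hypoxia and metals, fell in NAC (-1.30 ± 0.12, adjusted p = 7.3e-07) and had -0.31 in PQ (adjusted p = 0.082). In PQ Ndrg3 had 0.286 (0.233 to 0.342 on leaving out a library) and Ndrg4 had 0.94 (0.819 to 1.075). The Ndrg3 call was lost on leaving out any library other than control replicate 1, and with only the groups compared. The Ndrg4 call was lost without control replicate 2, PQ replicate 1 or PQ replicate 2, and with DESeq2. Ndrg2 made up 15.2% and 15.1% of NDRG FPKM in PQ libraries, 14.6% and 16.1% in NAC libraries and 12.3% and 9.99% in control libraries.

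A further 24 genes typical of astrocytes, 20 of them tested, gave 5 higher and 2 lower in PQ (median 0.02), 12 higher and 0 lower in NAC (median 0.49), and 1 higher and 9 lower in PQ against NAC (median -0.48). The count of 12 was 9 without NAC replicate 2, the 1 higher in PQ against NAC, Sox9, was lost without NAC replicate 1 (adjusted p = 0.066), and the 5 and 2 in PQ were 3 without PQ replicate 2 and 0 without PQ replicate 1. Apoe, the lipid carrier of glia, rose in PQ (1.30 ± 0.17, adjusted p = 5.3e-05) and in NAC (1.96 ± 0.17, adjusted p = 2.5e-07). Mlc1 rose in NAC (0.92 ± 0.10, adjusted p = 3e-06), as did Aqp4 (1.76 ± 0.22, adjusted p = 1.5e-05). Pla2g7, a secreted phospholipase, rose in both treatments (1.49 ± 0.29 in PQ, adjusted p = 0.0016, and 1.64 ± 0.29 in NAC, adjusted p = 0.00049).

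Markers of dividing cells differed in PQ, where Slc1a3, Slc4a4 and Fgfr3 fell. All 10 of them fell in PQ (median -0.77), with Mki67 at -1.14 ± 0.10 (adjusted p = 7.9e-07). Their summed level was 2139 and 1917 CPM in PQ libraries, 4056 and 3693 CPM in NAC libraries and 3586 and 3534 CPM in control libraries, with none of them at 0. In NAC 0 of the 10 were called by edgeR's test (median 0.11). There 4 had an unadjusted p under 0.05, DESeq2 called 1 and limma 0. In PQ against NAC 10 were lower (median -0.80). On leaving out a library Ccnb1 had -0.525 to -0.34 in PQ, and Rrm2 had -0.387 to -0.286 in PQ against NAC. Both calls were lost in some of these fits. The part of the dividing cell markers in the values of the 10 astrocyte genes was not tested.

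Among 10 neural stem cell markers, 8 of them tested, 1 rose and 3 fell in PQ (median -0.26), 0 rose and 3 fell in NAC (median 0.06), and 2 were higher and 4 lower in PQ against NAC. The rise in PQ was of Nes (log2 fold change 0.336, and 0.311 to 0.362 on leaving out a library). That call was lost without control replicate 2, PQ replicate 1 or PQ replicate 2. The 3 that fell in NAC were Vim, Sox2 and Nes. On leaving out a library they had -0.792 to -0.709, -0.424 to -0.188 and -0.298 to -0.246. The NAC call of Nes was lost on leaving out each library in turn, and that of Sox2 on leaving out some. The summed level of the 10 markers was 6125 and 5857 CPM in PQ libraries, 3622 and 3629 CPM in NAC libraries and 5557 and 5367 CPM in control libraries, and 0 to 2 of them were at 0 in a library. Most of that sum is Vim, with 4871 and 4594 CPM in PQ libraries, 2467 and 2489 CPM in NAC libraries and 4306 and 4058 CPM in control libraries. Vim fell in NAC (-0.76 ± 0.09, adjusted p = 5.7e-06), where Gja1 also fell. The part of these markers in the astrocyte genes' values was not tested.

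Other lineages were measured by summed marker levels. The 10 oligodendrocyte lineage markers, with 2 or 3 at 0 in a library, had 1736 and 1932 CPM in PQ libraries, 2043 and 2288 CPM in NAC libraries and 1954 and 1722 CPM in control libraries. Of 6 tested, 0 passed in PQ (1 at an unadjusted p under 0.05, and 0 by DESeq2 or limma), 3 rose in NAC and 2 were lower in PQ against NAC. The 3 in NAC were 0 without control replicate 2 and at most 2 in every fit with a library left out, and the 2 in PQ against NAC were 1 without PQ replicate 1. The 10 neuronal markers, with 1 to 3 at 0, had 323 and 307 CPM in PQ libraries, 396 and 375 CPM in NAC libraries and 288 and 291 CPM in control libraries. Most of that sum is Map2 and Nefl. Map2 had 191 and 180 CPM in PQ libraries, 359 and 318 CPM in NAC libraries and 194 and 204 CPM in control libraries. Nefl had 125 and 119 CPM in PQ libraries, 32.9 and 51.7 CPM in NAC libraries and 86.9 and 79.8 CPM in control libraries. Nefl shares 32.8% of its exonic bases with a tested gene on the opposite strand. Of 5 tested neuronal markers, 2 rose and 1 fell in PQ, and 2 were higher and 1 lower in PQ against NAC. In NAC 1 (Map2) rose and 2 (Nefl and Tubb3) fell. The 2 that rose in PQ were 0 without PQ replicate 1 and at most 1 in every fit with a library left out, the 1 that fell was 0 without control replicate 2, and the 2 higher in PQ against NAC were 1 without PQ replicate 1. The 10 microglia and blood cell markers, with 3 to 6 at 0, had between 6.77 and 12.8 CPM in sum, and the 6 ependymal markers between 14.9 and 22.1 CPM. The 8 endothelial markers had between 83.4 and 124 CPM, of which Flt1 alone had 80.8 to 121 CPM. The 8 fibroblast and mural cell markers had between 19.7 and 31.9 CPM, of which Col3a1 alone had 15.3 to 29.1 CPM. In PQ Flt1, the 1 tested endothelial marker, rose (0.45 ± 0.11, adjusted p = 0.0093), which was lost without PQ replicate 1 (adjusted p = 0.12). Of 5 tested fibroblast and mural cell markers 3 passed in PQ, where Col3a1, a fibrillar collagen, fell (-0.91 ± 0.14, adjusted p = 0.00025), and the rises of Acta2 and Dcn, with at most 2.28 CPM in any library, were lost without PQ replicate 2 (adjusted p = 0.16 and 0.45). Their part in the values of the 10 astrocyte genes was not tested. In NAC 0 of 1 endothelial and 1 of 5 fibroblast and mural cell markers passed, the last of these 0 without control replicate 1, and in PQ against NAC 0 and 1 did. Of 3 tested ependymal markers 0, 0 and 1 passed in PQ, NAC and PQ against NAC, and of 3 tested microglial markers 0, 1 and 0 did. Each of these single calls, Col3a1 and Foxj1 in PQ against NAC and P2ry12 in NAC, was lost on leaving out a library (adjusted p up to 0.36). Where edgeR called 0 in these 4 lists, 0 to 2 genes had an unadjusted p under 0.05, DESeq2 called 0, and limma called 1 microglial marker in PQ and 1 in PQ against NAC.

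Patterns over the 6 libraries split the 10 genes. As a description over libraries that share their group, Pearson's r of log2 CPM was 0.985 for Acsbg1 and Aldoc, 0.972 for Atp1b2 and Acsbg1, 0.963 for Slc1a2 and Atp1b2, and 0.953 for Slc1a3 and Slc4a4. Gja1 and Aldh1l1 had 0.869, and Slc4a4 and Gja1 had -0.978. Of the 45 pairs 24 were positive and 21 negative.

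For each gene the tested gene of nearest pattern was found among 10757 with a mean of at least 5 CPM, by the root mean square difference of centred log2 CPM over 6 libraries. It was Sephs1 for Slc1a3 (0.0492), Gfod2 for Slc1a2 (0.0273), Lpo for Slc4a4 (0.0641), Camkk2 for Atp1b2 (0.0709) and Astn1 for Acsbg1 (0.0501). For the others it was Tle4 for Aldoc (0.0711), Cers4 for Gja1 (0.0261), Gsdmd for Aldh1l1 (0.126), E2f8 for Fgfr3 (0.0322) and 2900026A02Rik for Ndrg2 (0.0819). Aldh1l1, the gene with the fewest counts, had the most distant neighbour.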

How the data were processed

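RNA sequencing was measured in 6 libraries, on BGISEQ-500, per the labels' protocols, which list both rRNA depletion and poly(A) selection and leave unsaid which one was used. The deposited tables hold an expected count, that is an estimated count of reads, and an FPKM value per gene, both made by the authors, per the file headers. HISAT2 2.0.4, Bowtie2 2.2.5, RSEM and mm10 are named, without roles, per the submitters' processing notes. Of the expected counts in a library, 20.88% to 21.38% are not whole numbers. Genes missing from a library's table, which holds values above 0 only, were entered as 0. Identifiers were matched to names for 17199 of 17254, and the other 55 held 0.072% to 0.079% of a library's counts. The strand used in counting is not given in the sources used here. No member shares exonic bases with another tested gene, while 20 of the 142 tested genes of the lists do.

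Rounded expected counts went into edgeR 4.0.16 (R 4.3.3, with limma 3.58.1 as an alternative) after filterByExpr (minimum count 10, minimum total 15) and TMM scaling. The quasi-likelihood fit had 1 mean per group over 6 libraries and 3 residual degrees of freedom, the threshold was 0.05 after Benjamini-Hochberg adjustment, and the script was tested on simulated data. The SE was taken as |log2 fold change| over the root of F, and 95% intervals use the test's own degrees of freedom. Alternatives were DESeq2 1.42.0, other scalings, no filter, a robust fit, only the groups compared, limma on log2 FPKM with a pseudocount of 1 or 0.1, each library left out, and a block for runs of title numbers, chosen after seeing the data. Figures used Python 3.11.15, pandas 2.3.3 and matplotlib 3.10.9.

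The 10 genes and all lists were chosen with earlier results of these data known. All 10 were to be named, with up to 4 genes of smallest p per list and comparison, relatives in the family lists, and the gene of nearest pattern. Replicates are numbered in accession order. Some listed relatives are not reported here.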

Additional observations from a re-analysis of the deposited data

How the results depend on the processing

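With 2 libraries a group, calls of small differences depend on single libraries. Of 270 values of single genes under other settings 260 kept their direction and side of the threshold, 6 reversed, 1 gained and 3 lost the call. Of 180 with 1 library left out 161 kept both, 5 reversed, 2 gained and 12 lost the call.

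The labels pair no samples. A block for the runs 8 to 10 and 11 to 13 of title numbers, chosen after seeing the data, left 2 residual degrees of freedom. Deviations of same-run libraries correlated across genes at 0.11 for PQ and NAC, -0.07 for PQ and control and -0.11 for NAC and control. With that block 944 genes were higher and 898 lower in PQ against control, and 1 of the 10 members was higher, since Gja1 missed the threshold (adjusted p = 0.0518), as did Slc1a3 in NAC against control (adjusted p = 0.0719). No other call among the 10 changed.

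The reversals were of differences near 0. Aldoc in PQ against control was 0.0155 with library size only, 0.0162 with limma on log2(FPKM + 1), 0.0166 with a pseudocount of 0.1, and -0.0929 to 0.0613 on leaving out a library (0.057 without control replicate 1, 0.0613 without PQ replicate 2). Fgfr3 in NAC against control was 0.017, 0.0113 and 0.0123 under the same settings, and -0.14 to 0.10 on leaving out a library (0.10 without control replicate 1, 0.0274 without NAC replicate 1). Ndrg2 in NAC against control was -0.45 to 0.0831, the highest without control replicate 1. The cause was not tested.

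Outside the leave-one-out and blocked fits, the counts of calls stayed within 1.5 times the reported ones. Leaving out a library gave 438 to 1114 genes higher and 391 to 1087 lower in PQ against control (0 to 2 and 3 of the 10 members), 658 to 1048 and 680 to 1109 in NAC against control (5 to 6 and 1 to 2 members), and 1273 to 2215 and 1154 to 2227 in PQ against NAC (2 to 3 and 6 to 7 members). The lowest counts over all genes, not those of the members, came without PQ replicate 2 in the comparisons with PQ. In NAC against control they came without NAC replicate 1. Changes of over 1.5 times also came without PQ replicate 1 (690 lower in PQ against control, 1292 lower in PQ against NAC), NAC replicate 1 (1290 higher and 1247 lower in PQ against NAC) and NAC replicate 2 (711 higher in NAC against control). In PQ against control Ndrg2 passed with no filter on low counts (adjusted p = 0.0101), and in NAC against control Slc1a3 did not pass with only the groups compared (adjusted p = 0.0515).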
